A study of Mus musculus with 5 samples.

Results

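The genes described here are 57 of the 51912 rows of the deposited table, and encode the major histocompatibility complex (MHC) and the proteins that feed it with peptides. They are all rows whose mouse symbol starts with H2-, the prefix of the mouse MHC, together with B2m, Tap1, Tap2, Tapbp, Psmb8, Psmb9, Psmb10, Nlrc5, Erap1, Cd74, Ciita and Ctss. By role they comprise 2 classical class I genes, 30 class Ib genes and pseudogenes, 5 genes of the class I machinery, 3 immunoproteasome subunits, 6 class II chains, 5 class II peptide editors, 2 genes of the class II machinery and 2 transactivators. The last 2 rows are H2-Ke6, which carries the prefix by position in the region, and the pseudogene H2-Pa.

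The libraries came from C57BL/6 mice, given as C57BL/6J in the source field, and formed a sham group of 2 and a stroke group of 3. For stroke, a filament closed the middle cerebral artery for 30 minutes, mice were kept if cerebral blood flow fell by at least 80%, and motor deficits were scored after 24 hours. The sources used here do not give the tissue, the time of sampling, the age of the mice or the procedure in the sham group, and no label names a genotype other than the strain. The labels do not say that each library came from a separate animal, so p-values measure only the spread between these libraries, which may be technical.

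MHC class I molecules pair a heavy chain with beta-2 microglobulin and show peptides from inside the cell to CD8+ T cells. The proteasome cuts these peptides, TAP carries them into the endoplasmic reticulum, ERAP1 trims them, and tapasin helps to load them. MHC class II molecules pair an alpha with a beta chain and show peptides from endosomes to CD4+ T cells, after the invariant chain CD74 has been cut away, a step in which cathepsin S takes part, and after H2-DM has exchanged its remnant. NLRC5 drives transcription of class I genes and CIITA that of class II genes. Interferon-gamma induces both sets, and in the brain class II is found mainly on microglia, border-associated macrophages and dendritic cells. Mice of the C57BL/6 strain make the K and D class I molecules and the A class II molecule, and lack a working alpha chain for the E molecule.

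Promoter sequence is shown first because MHC genes are known for sharing promoter elements. The 5 stretches shown lie upstream of the RefSeq start sites, with build GRCm38.p6, and are printed 5′ to 3′ on the gene's strand. They cover the classical class I genes, the class Ib gene with the smallest p-value of all members, and H2-Aa and H2-Eb1. Those last are class II chains whose promoter holds a perfect Y box. The H2-D1 stretch lies inside the gene as placed by GENCODE M21, which starts at chr17:35262730. Capitals mark matches to the motifs searched. The class I stretches run from 200 to 61 bases before the start site, at chr17:34000408-34000547 on the minus strand for H2-K1, chr17:35262894-35263033 on the plus strand for H2-D1 and chr17:35379417-35379556 on the plus strand for H2-Q4. The class II stretches run from 140 to 31 bases before it, at chr17:34287854-34287963 on the minus strand for H2-Aa and chr17:34305727-34305836 on the plus strand for H2-Eb1.
H2-K1: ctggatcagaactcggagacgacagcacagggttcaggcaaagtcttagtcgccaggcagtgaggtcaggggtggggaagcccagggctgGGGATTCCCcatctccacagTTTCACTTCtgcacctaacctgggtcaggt
H2-D1: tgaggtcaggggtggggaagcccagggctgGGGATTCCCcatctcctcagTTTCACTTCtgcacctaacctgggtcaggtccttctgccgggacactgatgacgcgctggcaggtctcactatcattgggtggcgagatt
H2-Q4: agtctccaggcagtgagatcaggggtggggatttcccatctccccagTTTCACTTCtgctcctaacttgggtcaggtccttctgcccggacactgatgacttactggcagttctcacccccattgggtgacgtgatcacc
H2-Aa: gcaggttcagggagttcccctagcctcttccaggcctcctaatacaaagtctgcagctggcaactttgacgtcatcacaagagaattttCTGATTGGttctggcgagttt
H2-Eb1: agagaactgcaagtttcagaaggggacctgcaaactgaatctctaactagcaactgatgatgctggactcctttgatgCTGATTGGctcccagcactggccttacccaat

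In H2-K1 and H2-D1 the first run of capitals is a kappaB core, GGGATTCCC, and the second is an interferon response motif, GAANNGAAA, read here on the other strand. H2-Q4 holds the interferon response motif without an exact match to that kappaB core, and reads GGGATTTCCC at the matching place. Variants of the core were not searched. In the class II promoters the capitals are the Y box, CTGATTGG, the site of the factor NF-Y. H2-D1 also holds a Y box, at -53 to -46 from the start site, past the end of its printed stretch. H2-T23, H2-Q6 and H2-Q7 hold one as well, so the Y box is not confined to class II. Each motif was searched on both strands in the 250 bases before the start site, with no overlap between motifs counted apart. Of the 57 members, 40 had a promoter in the table. The Y box was found in 19 of these 40 genes (47.5%), against 4.43% of all 27025 genes with a promoter. The matches of Psmb9 and Tap1 are the same bases, counted for both genes. Many of the genes with a match are close relatives, and the difference between these shares was not tested. The kappaB core was found in 4 (10.0%), namely H2-K1, H2-D1, H2-Q6 and H2-Q7, against 0.352% of all genes. The interferon response motif was found in 9 (22.5%), against 7.30%. Of the 19 members with a Y box, 8 had no read in any library, among them H2-M9, H2-M11 and 5 genes of the H2-M10 family.

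Genes and libraries differed in ways that bear on what follows. The values per library are reads divided by a size factor (normalized reads), with the reads recovered as whole numbers from the deposited summary. Values given as reads alone are not divided, and the stroke libraries had larger size factors than the sham libraries, which raises their reads. Stroke libraries are numbered 1 to 3 in falling order of size factor, and of the pair of sham libraries the one with the larger size factor is called deeper. Transcripts of neurons (Snap25, Syt1), astrocytes and oligodendrocytes were abundant, with each of those 12 markers at a mean of at least 910 normalized reads in the authors' deposited table. The deeper sham library stood apart in choroid plexus genes: the summed level of 8 of 9 markers was 2371 normalized reads there, against 264 in the shallower sham library and 446 to 493 in the stroke libraries. The shallower sham library stood apart in microglial genes: the summed level of 12 of 14 markers was 2759 there, against 5778 in the deeper sham library and 4959 to 5676 in the stroke libraries. In bulk tissue, fewer cells of a type and less RNA per cell cannot be told apart.

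Reads were found for 42 of the 57 members. The 15 rows at 0 were H2-M1, H2-M9, H2-M11, the 6 numbered H2-M10 genes, the pseudogenes H2-M10.5-ps1, H2-Q3, H2-Pa and H2-Pb, the inactive class II alpha chain H2-Ea-ps, and H2-T3, which encodes the thymus leukemia antigen. A count of 0 allows up to 3 reads per gene. Another 12 members had reads but too few for an adjusted p, which no gene with a mean under 9.19 received. Recovered reads were available for 41 of the 42 members, all but H2-Eb2, whose mean was 0.42. Per kilobase of exon, B2m led with a mean of 1904 normalized reads. It was followed by Ctss with 741, Psmb10 and H2-D1 with 274 each, Tapbp with 164 and H2-K1 with 142. The 3 tested class II chains lay between 6.91 and 11.6 normalized reads per kilobase, and their chaperone Cd74 at 56.1.

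None of the 30 tested members was called higher or lower in stroke by the authors' DESeq2 Wald test at an adjusted p below 0.05. Over all 17420 tested genes, 0.775% were called higher and 0.786% lower. At an unadjusted p below 0.05, 3 of the 30 members (10.0%) were higher, H2-Q4, H2-D1 and Cd74, and none was lower, against 4.84% higher and 5.66% lower among all tested genes. The smallest adjusted p-values in the authors' deposited table were 0.0974 for H2-Q4, 0.117 for H2-D1 and 0.279 for Cd74. At an adjusted p below 0.1, only H2-Q4 of the members would be called, against 1.11% of all tested genes called higher. The fold change was positive in 22 of the 30 members (73.3%), against 47.2% of all tested genes. Its median was 0.33 on the log2 scale over the members and -0.02 over all tested genes.

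**Figure D1:**
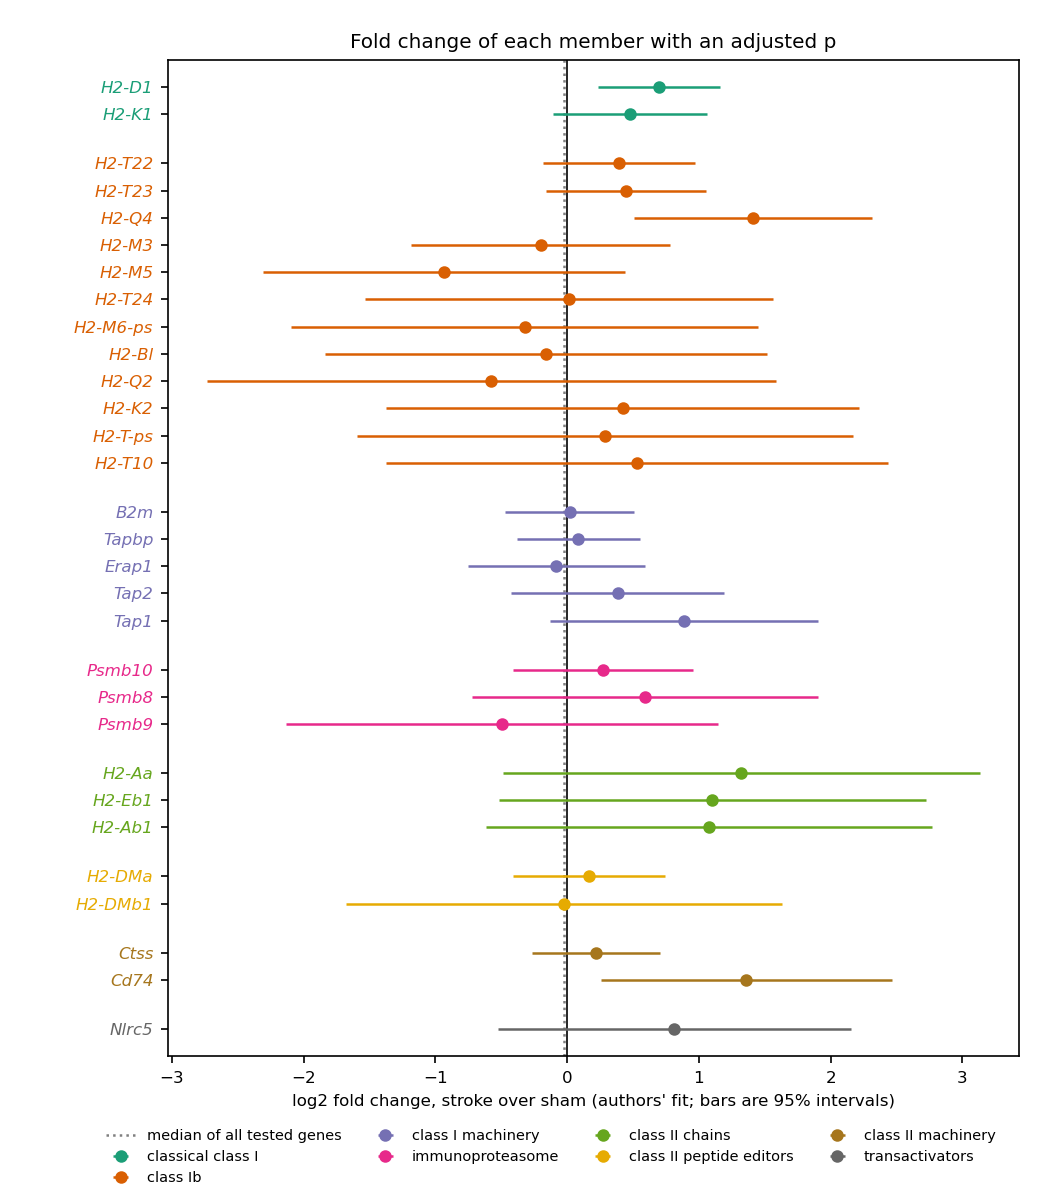
Log2 fold change of stroke over sham for the 30 members with an adjusted p, as points with 95% intervals from the deposited standard errors, coloured by role; the dotted line is the median of all tested genes. The intervals of H2-D1, H2-Q4 and Cd74 lie above 0, and those of the other 27 members include 0.

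In 10 of the 30 members (33.3%) all stroke libraries lay above both sham libraries, and in 1 member, H2-M5, all lay below. These orders were found in 10.1% and 16.6% of the 6943 tested genes with recovered reads. The 10 were H2-D1, H2-K1, H2-T22, H2-T23, H2-Q4, Tap1, H2-Eb1, H2-Ab1, Cd74 and Nlrc5. The shallower sham library held the lowest of the 5 values in 22 of the 30 members (73.3%), against 27.9% of those 6943 genes.

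**Figure D2:**
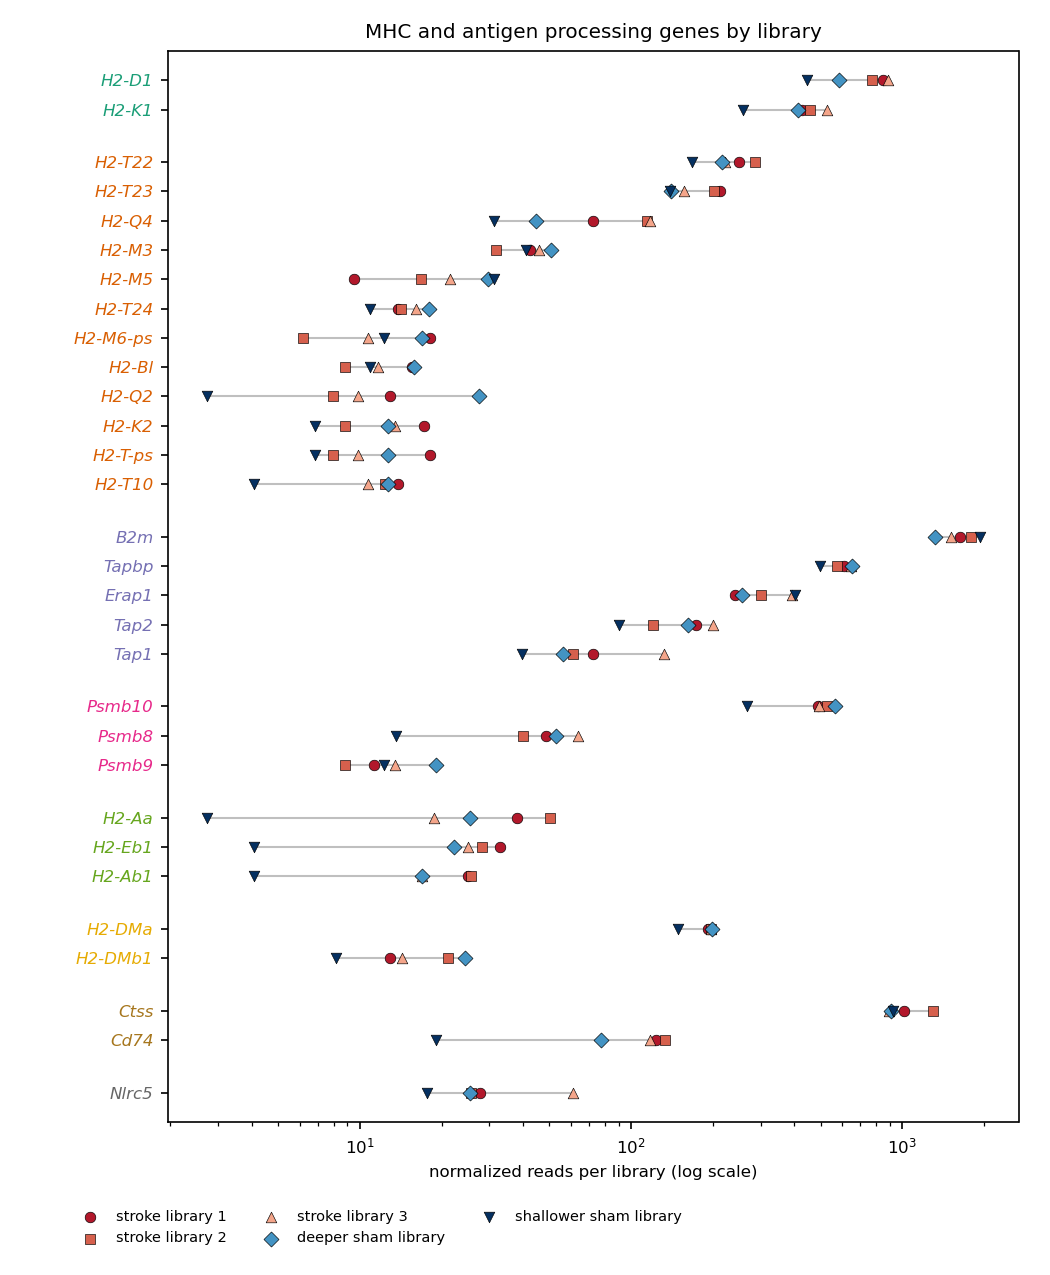
Normalized reads of the 30 tested members in each library on a log axis, 1 row per gene, with red and orange symbols for stroke and blue symbols for sham. The shallower sham library (dark triangles pointing down) is the lowest point in 22 rows, and is far to the left of the other libraries in H2-Q2, H2-Aa, H2-Eb1, H2-Ab1, Cd74 and Psmb8.

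The classical class I heavy chains H2-D1 and H2-K1, which present peptides to CD8+ T cells, were higher in every stroke library than in either sham library. H2-D1 (chr17:35262730-35267499) had 850, 774 and 881 normalized reads in the stroke libraries, a mean of 835 ± 55.0 (SD, n = 3), while deeper sham had 582 and shallower sham 446. Its log2 fold change in the authors' deposited table was 0.70 with a standard error of 0.24, with an unadjusted Wald p-value of 0.00299 and an adjusted p of 0.117. H2-K1 (chr17:33996017-34000347) had 425, 457 and 527 in stroke while deeper sham had 414 and shallower sham 259. The gap between the lowest stroke library and the deeper sham library was small for H2-K1, and its log2 fold change of 0.48 (standard error 0.30) in the authors' deposited table had an adjusted p of 0.646. Summed, both genes gave 1231 to 1408 normalized reads in stroke, with sham sums of 996 (deeper) and 704 (shallower). Stretches of 50 bases shared with transcripts of other genes made up 12.8% of H2-D1 and 9.63% of H2-K1, and the sources used here do not say how reads that fit several genes were counted.

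Among the class Ib genes, which are less polymorphic relatives of the classical heavy chains, values pointed both ways. Of 12 tested members, 7 had a positive and 5 a negative fold change, with a median of 0.15 on the log2 scale. H2-Q4, a gene of the Q cluster (chr17:35379617-35385290), had 72.6, 114 and 117 normalized reads in stroke while deeper sham had 44.5 and shallower sham 31.3. The groups did not overlap, and stroke library 1 was the one nearest to sham. Its log2 fold change in the authors' deposited table was 1.41 with a standard error of 0.46, an unadjusted p of 0.00217 and an adjusted p of 0.0974. H2-Q4 shared 21.8% of its 50-base stretches with other genes, and the predicted gene Gm11131 overlaps it on the opposite strand.

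H2-T23 encodes Qa-1, the ligand of inhibitory and activating NKG2 receptors on natural killer cells. It had 213, 202 and 157 normalized reads in stroke and sham values of 141 (deeper) and 139 (shallower), which were close to each other. H2-T22, a ligand of some gamma-delta T cells, had 251, 286 and 221 against 217 and 168. The third stroke library and the deeper sham library nearly met in H2-T22, which shared 31.2% of its 50-base stretches with H2-T10. H2-M3, which presents formylated bacterial peptides, had 42.3, 31.8 and 45.7 in stroke and 50.8 and 40.9 in deeper and shallower sham, and its groups overlapped.

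H2-M5 was the one tested member with all stroke libraries below both sham libraries. It had 9.51, 16.8 and 21.5 normalized reads in stroke while deeper sham had 29.6 and shallower sham 31.3. Its log2 fold change in the authors' deposited table was -0.94 with a standard error of 0.70 and an adjusted p of 0.764. The ratio between the sham libraries was widest for H2-Q2 among the tested class Ib genes, with 27.5 in the deeper and 2.73 (2 reads) in the shallower one, while the stroke libraries lay between them at 7.96 to 12.96. The other tested class Ib rows, H2-T24, H2-T10 and H2-Bl and the pseudogenes H2-K2, H2-T-ps and H2-M6-ps, had means of 10.7 to 14.6 normalized reads, and their groups overlapped.

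Of the class Ib rows without an adjusted p, H2-Q6 had 20, 11 and 2 reads in the stroke libraries while deeper sham had 3 and shallower sham 1. H2-Q7, which with close relatives encodes Qa-2, had 8, 9 and 7 reads in stroke against 3 and 2. Both promoters hold the kappaB core and the interferon response motif, as H2-D1 does. At these depths the deposited standard errors were 1.48 and 1.28 on the log2 scale in the authors' deposited table, and no difference was detectable.

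Fold changes near 0 were found for B2m, Tapbp and Erap1, partners of the class I heavy chain. B2m, the light chain of every class I molecule (chr2:122147686-122153083), had 1627, 1796 and 1512 normalized reads in stroke while deeper sham had 1321 and shallower sham 1929. Both sham values lay outside the stroke range, one on either side. Its log2 fold change in the authors' deposited table was 0.02, with a 95% interval from -0.47 to 0.51. Tapbp, which encodes tapasin, had 607, 574 and 647 against 651 and 496. Erap1, the trimming peptidase, had 241, 301 and 391 against 257 and 402. For Tapbp the 95% interval of the log2 fold change ran from -0.38 to 0.55, and for Erap1 from -0.76 to 0.59.

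The peptide transporter subunits Tap1 and Tap2 lie near each other on chromosome 17, with Psmb8 between them. Tap1 (chr17:34187553-34197225) had 72.6, 61.0 and 133 normalized reads in stroke while deeper sham had 56.1 and shallower sham 39.5. Stroke library 3 was far above the rest, and the groups did not overlap. Its log2 fold change in the authors' deposited table was 0.89 with a standard error of 0.52 and an adjusted p of 0.592. Tap2 had 174, 120 and 201 in stroke against 162 and 89.9, with overlap between stroke and the deeper sham library.

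The immunoproteasome subunits replace the standard catalytic subunits and favour peptides that fit class I molecules. Psmb8 had 48.4, 39.8 and 63.6 normalized reads in stroke while deeper sham had 52.9 and shallower sham 13.6. Psmb10 had 487, 527 and 494 in stroke against 564 and 267. In both genes the stroke libraries lay near the deeper sham library and well above the shallower one. Psmb9 was low throughout, with 11.2, 8.84 and 13.4 in stroke and 19.1 and 12.3 in deeper and shallower sham. It overlaps Tap1 on the opposite strand, and the sources used here do not give the strand setting of the counting. The adjusted p-values of these subunits in the authors' deposited table were 0.907, 0.920 and 0.949.

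The class II chains and Cd74 had the highest median fold change of the groups described here, 1.21 on the log2 scale over their 4 tested genes, and none was called. H2-Aa, the alpha chain of the A molecule, had 38.0, 50.4 and 18.8 normalized reads in stroke, 25.4 in the deeper sham library and 2.73 (2 reads) in the shallower one. H2-Ab1, its beta chain, had 25.1, 25.6 and 17.0 in stroke against 16.9 and 4.09 (3 reads). H2-Eb1, the beta chain of the E molecule, had 32.8, 28.3 and 25.1 against 22.2 and 4.09 (3 reads). The deeper sham library was close to and below the lowest stroke library in H2-Ab1 and H2-Eb1. In H2-Aa it was above stroke library 3, so the groups overlapped. The shallower sham library was far below the other libraries in each of the 3 genes. The log2 fold changes in the authors' deposited table were 1.32, 1.08 and 1.10, with standard errors of 0.92, 0.86 and 0.83 and adjusted p-values of 0.727, 0.794 and 0.767.

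Cd74 had more reads than these chains and was higher in each stroke library than in either sham library. It had 124, 133 and 117 normalized reads in stroke, a mean of 125 ± 8.14 (SD, n = 3), while deeper sham had 77.3 and shallower sham 19.1. Its log2 fold change in the authors' deposited table was 1.36 with a standard error of 0.56, an unadjusted p of 0.0160 and an adjusted p of 0.279. The spread between the sham libraries was larger than the spread among the stroke libraries. Ctss, the protease that trims the invariant chain in macrophages and microglia, did not follow Cd74. It had 1010, 1296 and 893 normalized reads in stroke and 907 and 924 in deeper and shallower sham, and its groups overlapped.

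The ratios of pooled reads put the size of the split between the sham libraries beside that between the groups. For H2-Aa, H2-Ab1, H2-Eb1 and Cd74 together, there were 722 reads in the 3 stroke libraries, while deeper sham held 134 and shallower sham 22. With pooled reads divided by summed size factors, stroke was 1.495 times the deeper sham library (counting interval 1.24 to 1.81). It was 7.07 times the shallower one (4.64 to 11.4). The deeper sham library was 4.73 times the shallower one (3.00 to 7.80), a larger ratio than that between stroke and the deeper sham library. For H2-K1 and H2-D1 the same ratios were 1.31 (1.22 to 1.41), 1.85 (1.69 to 2.03) and 1.41 (1.27 to 1.58). These intervals cover counting error only.

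The 2 tested class II peptide editors, H2-DMa and H2-DMb1, had fold changes near 0. The estimate for H2-DMb1 was imprecise, with a 95% interval of the log2 fold change from -1.68 to 1.63. H2-DMa, the alpha chain of the editor H2-DM, had 193, 196 and 196 normalized reads in stroke while deeper sham had 198 and shallower sham 149. The stroke libraries and the deeper sham library were all but equal, and the log2 fold change in the authors' deposited table was 0.17 with a 95% interval from -0.41 to 0.74. H2-DMb1, its beta chain, had 12.96, 21.2 and 14.3 against 24.3 and 8.18, and its near copy H2-DMb2 had 14, 7 and 5 reads in stroke and 10 and 3 in deeper and shallower sham. H2-DMb1 and H2-DMb2 shared 22.7% of the 50-base stretches of H2-DMb1. H2-Oa and H2-Ob encode H2-DO, which inhibits H2-DM. H2-Oa had 8, 10 and 4 reads in stroke and 1 and 2 in deeper and shallower sham, and H2-Ob had 9, 9 and 1 against 8 and 0.

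The transactivators were low. Nlrc5 had 27.7, 25.6 and 60.9 normalized reads in stroke while deeper sham had 25.4 and shallower sham 17.7. As in Tap1, stroke library 3 was the one that stood out, and the other stroke libraries were close to the deeper sham library. Ciita had 3, 0 and 4 reads in stroke and 3 and 1 in deeper and shallower sham, too few for a comparison. H2-Ke6, a dehydrogenase gene of the region that is no MHC gene, had 2, 7 and 6 reads against 8 and 0.

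Set against each sham library in turn, the members differed by role. Over the 30 tested members the median log2 ratio of the stroke mean was 0.04 to the deeper and 0.86 to the shallower sham library, computed as log2(normalized reads + 1). The same medians over the 6943 genes were -0.08 and -0.09. For the class II chains and Cd74 they were 0.44 and 2.60, for the classical class I genes 0.35 and 0.88, and for the immunoproteasome -0.17 and 0.91. The stroke mean was above the deeper sham library in 16 of 30 members and above the shallower one in 24 of 30. Over the 6943 genes it was above the deeper one in 3147 and above the shallower one in 3180.

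**Figure D3:**
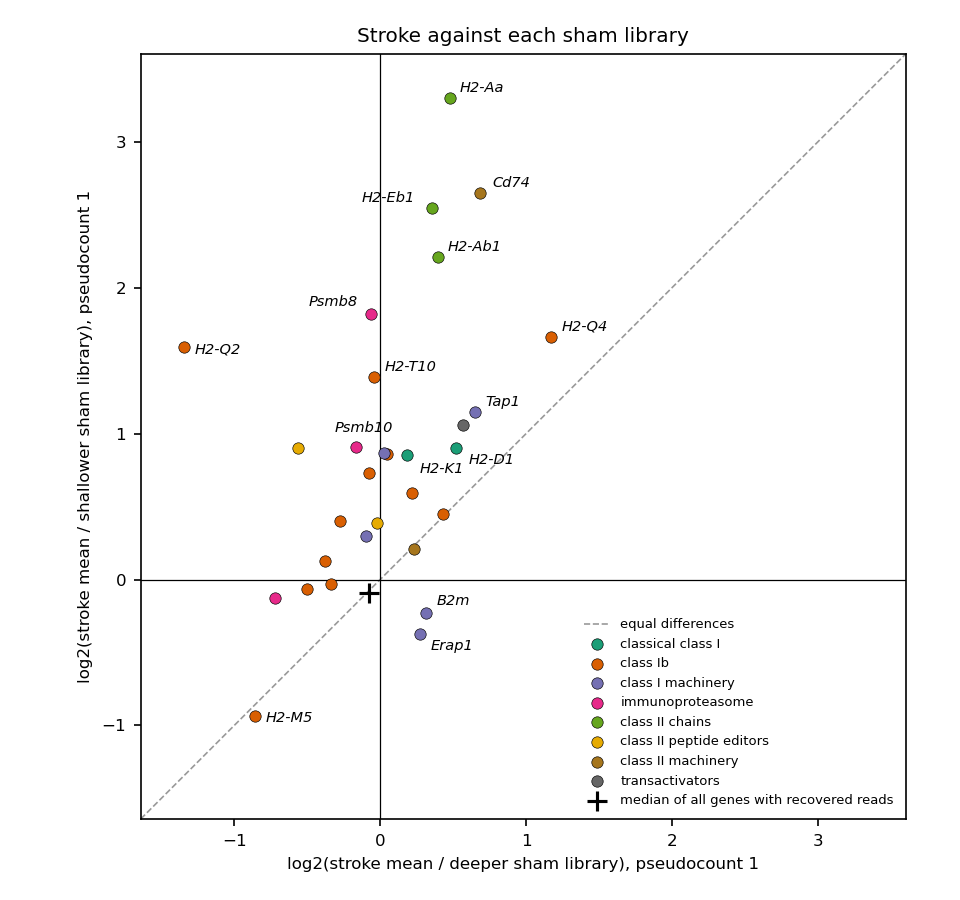
Each tested member's log2 ratio of the stroke mean to the deeper sham library (x axis) and to the shallower sham library (y axis), both with a pseudocount of 1, coloured by role; the cross marks the medians of all genes with recovered reads, -0.08 and -0.09. H2-Q2, H2-Aa, H2-Eb1, Cd74, Psmb8 and H2-Ab1 lie farthest above the dashed line of equal ratios, H2-Q4 lies near it at more than 1 on both axes, and B2m and Erap1 lie below it.

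Leaving out 1 sham library changed the calls. By limma on the recovered reads, no member was called with all libraries or without any 1 stroke library, and none without the shallower sham library. The shares of the 6943 genes called higher or lower in these fits were 0.0144% with all libraries, 0% without any 1 stroke library and 2.78% without the shallower sham library. Without the deeper sham library limma called 9 of the 30 members higher at an adjusted p below 0.05, namely Cd74, H2-Aa, H2-Ab1, H2-Eb1, H2-D1, H2-K1, H2-Q4, Psmb8 and Psmb10. In that setting 6.31% of the 6943 genes were called higher, and at an unadjusted p below 0.05 the shares were 14 of 30 members and 12.9% of the genes. The lone sham library is assumed there to vary like the stroke libraries. Cd74, H2-D1 and H2-Q4 kept an unadjusted limma p below 0.05 with all libraries and without any 1 stroke library. Their adjusted limma p-values were 0.577 to 0.581 with all libraries and 0.801 to 0.990 without any 1 stroke library. These members stood out in the authors' test on the same libraries, so the refits are not separate support. Without the shallower sham library the log2 differences of Cd74, H2-D1 and H2-Q4 were 0.68, 0.52 and 1.138.

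Markers of microglia and border-associated macrophages, which are among the cells that carry class II, moved with part of this pattern. Relative to each gene's own mean, the median of 12 microglial markers was 0.51 in the shallower sham library, 1.15 in the deeper one and 1.04 to 1.36 in stroke, and the median of the class II chains and Cd74 was 0.19, 0.95 and 1.04 to 1.43. The 4 class II genes summed to 1.09% of the microglial sum in the shallower sham library, 2.45% in the deeper one and 3.34% to 4.43% in the stroke libraries. Without Cd74, the 3 chains summed to 0.395% of the microglial sum in shallower sham, 1.12% in deeper sham and 1.141% to 1.93% in stroke, where the lowest stroke library all but met deeper sham. H2-Aa alone was at 0.352% in stroke library 3, below the 0.440% of deeper sham. H2-K1 and H2-D1 together stood at 25.5% of the microglial sum in shallower sham, inside the stroke range of 21.7% to 26.4%, and at 17.2% in deeper sham. Of 14 microglial markers, 12 had a positive fold change and none was called, and the part of microglial RNA in the class II values was not tested. Border-associated macrophage markers, such as Mrc1 and Cd163, had a median of 0.59 in the shallower sham library, 0.82 in the deeper one and 0.87 to 1.41 in stroke. All 6 tested markers of that list had a positive fold change and none was called. The 3 tested dendritic cell markers did not share it, with a median of 0.98 in shallower sham, 0.81 in deeper sham and 0.59 to 1.02 in stroke.

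**Figure D4:**
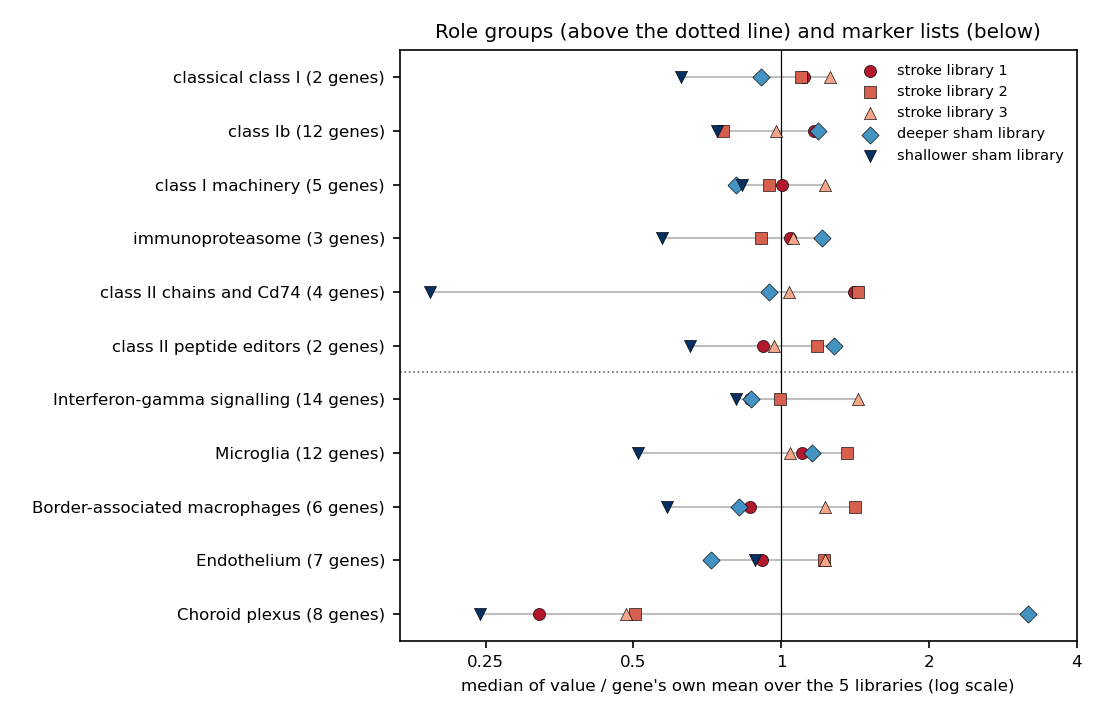
Median, over the tested genes of each role group or marker list with recovered reads, of the value in a library divided by the gene's own mean over the 5 libraries (log axis), 1 symbol per library. The shallower sham library is lowest in every row except the class I machinery and endothelium. Its value is 0.19 for the class II chains with Cd74, 0.24 for choroid plexus genes and 0.51 for microglia. The deeper sham library is highest for choroid plexus genes (3.19).

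Markers of lymphocytes were mixed in level. Of 11 T and NK cell markers, Cd8b1, Ncr1 and Nkg7 had no read, and Cd3e, Cd3d, Cd3g, Cd8a and Klrb1c had means of 0.17 to 2.83 normalized reads in the authors' deposited table. The other 3, Cd4, Trbc2 and Trac, had means of 243, 145 and 11.4 there. The recovered part of the list, 6 markers, summed to 305 to 480 normalized reads in stroke, with sham sums of 395 (deeper) and 489 (shallower). Of 7 B cell markers, Ighm and Igkc had means of 508 and 9.77 in the authors' deposited table and the other 5 lay below 4. The B cell list summed to 376 to 725 in stroke, 466 in deeper sham and 578 in shallower sham. In both sums the groups overlapped, and no gene of these lists was called.

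Among 9 dendritic cell markers Xcr1 was at 0, and 5 had reads but no adjusted p, among them Ccr7, with all stroke libraries above both sham libraries at a mean of 2.60. Zbtb46 had 361, 307 and 314 normalized reads in stroke, while deeper sham had 248 and shallower sham 301, and an adjusted p of 0.886 in the authors' deposited table. Itgax had 6.05, 15.0 and 24.2 normalized reads in stroke and 6.35 and 0 in deeper and shallower sham. Flt3, a receptor used as a marker of that lineage, was called lower in stroke, with 106, 149 and 141 normalized reads against 262 and 290, a log2 fold change of -1.06 and an adjusted p of 0.0377 in the authors' deposited table. The dendritic list, 8 of 9 markers, summed to 491 to 514 in stroke and to 550 and 604 in sham. Flt3 and Zbtb46 held most of this sum in every library, so it says little about the other markers. Those others with reads had means of 0.36 to 10.3 normalized reads in the authors' deposited table. Of 6 monocyte markers none was called. Fn1 and Vcan, the tested pair, had log2 fold changes of 0.54 and -0.35 in the authors' deposited table, and Ccr2 had 5.19, 8.84 and 11.6 normalized reads in stroke and 7.41 and 5.45 in deeper and shallower sham. The part of these cells in the members' values was not tested.

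Interferon-gamma induces class I and class II genes, and a list of its signalling genes was read beside the members. Of 17 tested genes 13 had a positive fold change, none was called, and 3 had an unadjusted p below 0.05, while Ifng itself had no read. Gbp3, a guanylate-binding protein, had 80.4, 86.6 and 159 normalized reads in stroke and 37.0 and 35.4 in deeper and shallower sham. Iigp1, an immunity-related GTPase, had 76.1, 76.0 and 59.1 against 24.3 and 23.2, and Irgm1 had 319, 296 and 339 against 162 and 225. All stroke libraries lay above both sham libraries in these 3 genes, whose sham libraries were closer to each other than for Cd74. Their adjusted p-values were 0.0691, 0.0629 and 0.228 in the authors' deposited table. Stroke library 3 was highest in Gbp2, at 262 normalized reads against 45.0 to 97.2 in the others, as it was in Tap1, Nlrc5 and Psmb8. In other genes it was the lowest of the stroke libraries, among them Iigp1, H2-T22, H2-T23, H2-Aa, H2-Ab1, H2-Eb1 and Cd74.

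Other genes of the pathway were also taken from lists. Of 15 further peptide loading and class I pathway genes, 10 had a positive fold change and 1 was called higher, the endoplasmic reticulum chaperone Hspa5, with a log2 fold change of 0.72 and an adjusted p of 0.0403 in the authors' deposited table. Calr, Canx and Pdia3, which act in peptide loading itself, had adjusted p-values of 0.690, 0.973 and 0.959. Of the standard proteasome subunits that the immunoproteasome replaces, Psmb5 had 390, 386 and 369 normalized reads in stroke and 309 and 202 in deeper and shallower sham, with an unadjusted p of 0.0446, and Psmb6 and Psmb7 had fold changes of 0.14 and 0.22 on the log2 scale. None of 9 class II processing genes, 8 genes of the RFX and NF-Y complex that binds MHC promoters, 5 tested class I-like genes outside the H2 group and 7 non-MHC genes of the region was called or had an unadjusted p below 0.05.

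Of 4 tested costimulation genes, which give T cells the signal that accompanies the MHC, all 4 had a positive fold change and none was called. Cd86 had 92.5, 126 and 118 normalized reads in stroke while deeper sham had 39.2 and shallower sham 62.7. Its groups did not overlap, and here the deeper sham library was the lower one. The log2 fold change of Cd86 in the authors' deposited table was 1.15 with a standard error of 0.42, an unadjusted p of 0.00633 and an adjusted p of 0.180. Cd274, which encodes the inhibitory ligand PD-L1, had 51.9, 55.7 and 97.6 against 40.2 and 28.6, with an adjusted p of 0.525.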

How the data were processed

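RNA sequencing was done on 5 mouse libraries, 2 sham and 3 stroke. Per the submitters' processing notes, the tools were FastQC, STAR 2.5.2b, featureCounts 1.5.1 and DESeq2 1.14.1, with genome build GRCm38. Per the labels' protocols, libraries were made with a stranded polyadenylated-RNA kit. The sources used here do not state the annotation release, the strand setting of counting or the handling of reads that map to several places.

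Per the file headers, the authors' deposited table holds no value per library. It gives each gene a signal, the authors' mean of size-factor-normalized read counts over all libraries. It also gives a deposited log2 fold change with its standard error and the authors' Wald statistic (each a score here), beside the deposited p-value and adjusted p-value. The deposited table does not name the numerator: genes with 1 read in all had 3 levels of the mean where the fold change was positive and 2 where it was negative, so a positive value is higher in the group of 3, stroke. Genes with an adjusted p are called tested. Calls use the authors' adjusted p below 0.05 over 17420 genes.

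Whole reads per library were recovered with numba 0.67.0 by searching for the 5 counts that give a gene's deposited mean, fold change and standard error. This was tried for 21176 genes, those with a mean up to 200, listed genes up to 900 and all members. It returned 1 set for 16727 genes, among them 13721 of the 13730 with a mean of at least 1, and never 2 sets. The size factors that came with it were 1.16, 1.13 and 1.12 for the stroke libraries, numbered in that order, and 0.945 and 0.734 for the deeper and the shallower sham library. The numbers are not the replicate numbers of the labels. The sources used here do not state how many reads each library had in all. The search was tested on simulated data modelled on members with lower means than B2m, Ctss, H2-D1 and Tapbp. It was not tested at the means of those genes. Of 17420 tested genes, 6943 had recovered reads, mostly at lower means. limma 3.58.1 with a trend on log2(normalized reads + 1) over these genes was an alternative only, as were the other settings of the closing section. The limma fit was tested on simulated data too. Counting intervals are exact conditional 95% intervals from scipy 1.17.1 and cover counting error only.

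Members and lists were chosen with earlier results of these data known. Values are printed in full for the 3 members of each role group with the smallest p-value and the 3 with the largest mean. Genes outside the members are named where they were called, had an unadjusted p below 0.05, or were needed beside a result. Exon lengths and positions come from GENCODE M21 and promoters from RefSeq, both GRCm38.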

Additional observations from a re-analysis of the deposited data

How the results depend on the processing

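No paired analysis was possible because the deposited table carries no value under the replicate numbers of the labels. No member was called with adjustment over every gene with a p-value or over genes that averaged 5 CPM or more (CPM here scales by the sum of the deposited means), at 0.01, or against a fold of 1.5, and 1 was called at 0.1. In limma leave-one-out fits, chosen after seeing the data, the number of members called ranged from 0 to 9 and the number with an unadjusted p below 0.05 from 3 to 14, the highest without the deeper sham library. Over all 6943 genes the same fits gave 0 to 1422 and 199 to 2403. Among members of at least 5 CPM, 1 had an unadjusted p below 0.05, 10 of 11 had a positive fold change, and the medians were 0.42 for class Ib and 0.22 for the class II machinery, where only Ctss was left. With every member that had a read, the class Ib median was 0.41. The median difference over members, 0.38 with all libraries, ranged from -0.00068 without the shallower sham library to 0.83 without the deeper one, and the signs of 11 and 2 of 30 members changed. The cause was not tested. At this depth 12 members with reads had no adjusted p.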
